A study of Homo sapiens with 6 samples.

Results

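Mucins are long, heavily O-glycosylated proteins that cover and protect wet epithelia. Of 27968 genes in the files, 10 mucin genes were taken by symbol, MUC1, MUC2, MUC3A, MUC4, MUC5AC, MUC5B, MUC6, MUC13, MUC16 and MUC20. They were compared between A549 and H23, established human cell lines that are both kept as models of lung adenocarcinoma. RNA came from 3 independent, untreated cultures of A549, grown in DMEM, and 3 of H23, grown in RPMI 1640, both with fetal bovine serum. Line and medium changed together and cannot be told apart. Each line stands for 1 tumour, so the comparison is between these lines and not between kinds of tumour.

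Membrane mucins such as MUC1, MUC3A, MUC4, MUC13, MUC16 and MUC20 span the cell membrane, carry long glycosylated repeats outside the cell, and can be shed from it. Gel-forming mucins such as MUC2, MUC5AC, MUC5B and MUC6 are secreted, link to each other through disulfide bonds, and give mucus its gel structure. In the airway, MUC5AC is known from surface goblet cells and MUC5B from submucosal glands and secretory cells, and the carcinoma-associated MUC1 from the apical surface of most simple epithelia. In bulk RNA such as this, fewer cells of a type and less RNA per cell cannot be told apart.

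RefSeq's promoter table (GRCh38.p14) held 6 of the 10 genes, MUC1, MUC2, MUC3A, MUC4, MUC13 and MUC16, and MUC5AC, MUC5B, MUC6 and MUC20 had no entry. The stretch of 250 bases before the first listed start is shown 5′ to 3′ on the gene's strand for the membrane mucins with the highest TPM in H23 (MUC1 and MUC3A) and in A549 (MUC13). Capitals mark matches, on either strand, to the 8 motifs searched.
MUC1, chr1:155192916-155193165, minus strand: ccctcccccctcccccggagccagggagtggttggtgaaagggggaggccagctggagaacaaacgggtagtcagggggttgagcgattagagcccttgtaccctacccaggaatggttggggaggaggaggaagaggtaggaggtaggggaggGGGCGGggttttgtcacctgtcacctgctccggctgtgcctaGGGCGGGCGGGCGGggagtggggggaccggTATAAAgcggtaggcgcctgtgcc
MUC3A, chr7:100949284-100949533, plus strand: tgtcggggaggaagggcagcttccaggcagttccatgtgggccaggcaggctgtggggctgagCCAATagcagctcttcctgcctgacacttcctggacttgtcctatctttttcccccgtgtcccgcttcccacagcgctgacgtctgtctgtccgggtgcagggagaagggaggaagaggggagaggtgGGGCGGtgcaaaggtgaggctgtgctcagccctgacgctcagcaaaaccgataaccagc
MUC13, chr3:124934752-124935001, minus strand: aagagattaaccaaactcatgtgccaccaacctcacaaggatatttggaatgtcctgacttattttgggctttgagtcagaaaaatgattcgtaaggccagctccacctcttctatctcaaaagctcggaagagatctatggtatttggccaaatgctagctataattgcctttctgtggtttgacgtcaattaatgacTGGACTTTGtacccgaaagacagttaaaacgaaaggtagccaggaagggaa
The MUC1 stretch was 66.0% GC and the MUC3A stretch 61.6%, against 41.6% for MUC13, 61.6% for the first listed start of MUC16 and a median of 58% over 35116 promoters of this length. MUC1 held 4 matches to the GC box, GGGCGG, 3 of them overlapping, and 1 to the TATA box, TATAAA. MUC3A held 1 GC box match and 1 match to CCAAT. MUC13 held 1 match, on the opposite strand, to CAAAGTCCA, a form of the site known for the nuclear receptor HNF4A. Of all promoters, 42.6% held the GC box, 10.7% the TATA box, 32.0% CCAAT and 0.325% CAAAGTCCA. None of the 3 stretches held the STAT-type motif TTCNNNGAA, found in 6.57% of promoters, or the forkhead-type motif TGTTTAC, found in 2.98%. None held the GATA-type motif AGATAA, found in 9.17% of promoters. The caudal-type motif TTTATNG, found in 8.93%, was likewise without a match in them. Among the genes with an entry that are not shown, MUC4 held 1 STAT-type match and MUC2 held 1 caudal-type match. The motifs were chosen with the levels known, and a match describes letters only.

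The libraries held 24441832, 25348083 and 23399562 counts in A549 and 37295989, 29395795 and 42421642 in H23. Rank correlations across tested genes were at least 0.998 among A549 libraries and 0.764 to 0.792 between lines. H23 replicate 1 stood apart, at 0.977 with the other H23 libraries, against 0.998 between H23 replicates 2 and 3. Genes under 350 bases took 37.8% to 40.8% of all TPM in A549 and 0.598% to 0.937% in H23, which lowers the TPM of every other gene in A549. Both lines carried epithelial keratin mRNA, with KRT8 at 2186 ± 62.2 CPM in A549, against 1493 ± 30.7 CPM in H23 (SD, n = 3 each). KRT7 was at 3562 ± 48.4 CPM in A549 and 1.18 ± 0.112 in H23, and KRT19 was at 61.8 ± 1.91 CPM in A549 and 4.68 ± 0.633 in H23. CDH1 and EPCAM, which join epithelial cells, had log2 folds of -1.43 ± 0.17 and -0.91 ± 0.19, higher in H23. Of 7 tested epithelial markers, 4 were higher in A549 and 2 in H23, with 1 that did not pass, or 3 and 3 on log2(TPM + 1). Of the 6 blood, 5 endothelial and 6 fibroblast markers, 4 were tested and 1 passed, LUM. It was at 0.512 ± 0.155 CPM in A549, against 1.25 ± 0.192 CPM in H23. In the same test 77.2% of all tested genes passed, in either direction. The counts of markers that passed, epithelial or other, are therefore not read as a property of these lists. CD14 and ITGAM, genes of myeloid cells, were read in every library without passing, at 3.77 and 4.22 CPM in A549, against 3.25 and 4.26 CPM in H23, as was PDGFRA, with 1.70 CPM in A549, against 1.37 CPM in H23. CD3E, HBB and DCN were at 0 counts in all 6 libraries, and the endothelial VWF, not tested, had 0 reads in A549 and 69 in H23. The summed level of the endothelial markers was 0.291 to 0.360 CPM in A549 and 0.634 to 1.11 CPM in H23, that of the blood markers 7.40 to 8.92 CPM in A549 and 6.16 to 8.62 CPM in H23, and that of the fibroblast markers 2.0 to 2.72 CPM in A549 and 2.80 to 3.58 CPM in H23. The part of such cells in the mucin results was not tested.

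The lines carried different sets of mucin mRNAs. MUC1, MUC3A and MUC16 were higher in H23, and MUC5AC, MUC5B and MUC13 were higher in A549. MUC2, MUC4, MUC6 and MUC20 had too few reads to enter the test. Of 15426 genes tested with edgeR's quasi-likelihood test, 5801, or 37.6%, were called higher in A549 and 6109, or 39.6%, higher in H23, 77.2% in either direction, at a Benjamini-Hochberg adjusted p of 0.05. All 6 tested mucins were called, but each entered the test through the line in which it was high, so that count is not read as a property of the family. Log2 folds are A549 over H23 with an approximate standard error, and levels are TMM-normalised CPM with their SD over 3 libraries.

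**Figure D1:**
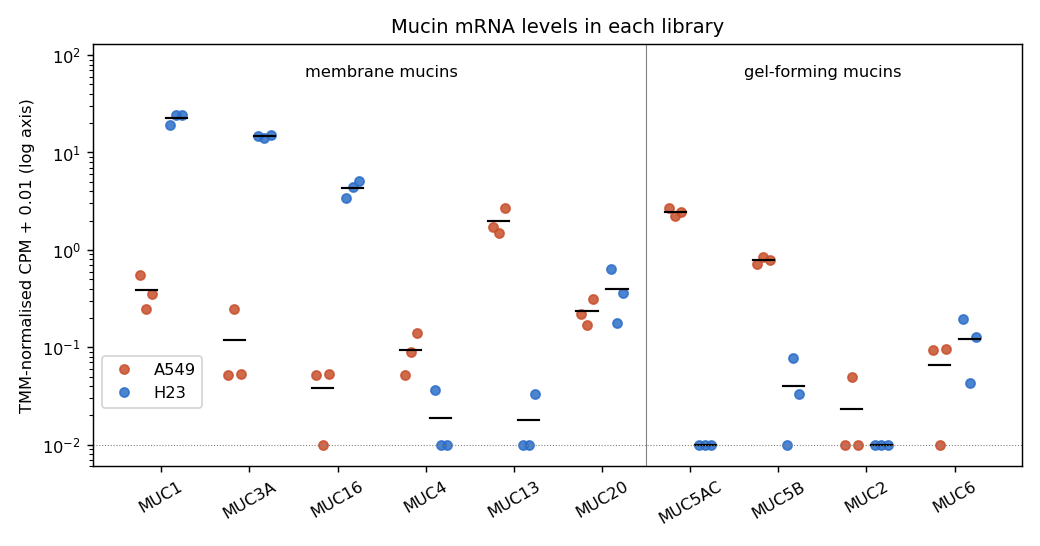
TMM-normalised CPM plus 0.01, on a log axis, of the 10 mucin genes in each of the 3 A549 libraries (left of each pair) and the 3 H23 libraries (right); points are libraries, bars are group means, and the dotted line is a count of 0. MUC1, MUC3A and MUC16 lie higher in all 3 H23 libraries, and MUC5AC, MUC5B and MUC13 in all 3 A549 libraries.

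MUC1, the membrane mucin best known in carcinomas, had 13, 6 and 8 reads in the A549 libraries and 729, 732 and 1038 in the H23 libraries. Its level was 0.375 ± 0.153 CPM in A549, against 22.7 ± 3.0 CPM in H23, and the highest A549 library stood far below the lowest H23 library. The log2 fold was -5.91 ± 0.25 (edgeR adjusted p = 2.1e-06).

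MUC3A, a membrane mucin with EGF-like domains known from the intestine, had 1, 6 and 1 reads in A549 and 565, 425 and 642 in H23. The H23 libraries lay close together, at 14.8 ± 0.481 CPM, and the A549 libraries were at 0.108 ± 0.114 CPM. The log2 fold was -7.01 ± 0.36 (edgeR adjusted p = 4.29e-06) and became -8.31 without A549 replicate 2, which held 6 of the 8 A549 reads.

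MUC16, the largest membrane mucin and the carrier of a serum antigen of ovarian cancer, had 1, 0 and 1 reads in A549 and 128, 131 and 217 in H23. All H23 libraries were far above all A549 libraries, at 4.29 ± 0.866 CPM against 0.0282 ± 0.0245 CPM in A549 (edgeR adjusted p = 1.16e-05). With 2 reads in A549, the fold is given as a ratio of summed counts, with H23 156 times A549 and a 95% counting interval of 43.0 to 1292. That ratio was 102 without A549 replicate 2.

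MUC13, a membrane mucin known from the gut lining, had 41, 37 and 62 reads in A549 and 0, 0 and 1 in H23. Its level was 1.95 ± 0.635 CPM in A549, against 0.00785 ± 0.0136 CPM in H23 (edgeR adjusted p = 4.32e-05). A549 stood at 214 times H23, with a 95% counting interval of 37.7 to 8494 that reflects the single H23 read. The ratio was 140.2 without H23 replicate 1, and without H23 replicate 3, the library with that read, A549 was at least 43.8-fold higher.

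MUC20, which in human cells is known to bind the receptor MET, was read in all 6 libraries, with 5, 4 and 7 reads in A549 and 24, 5 and 15 in H23. The lines overlapped, at 0.223 ± 0.0722 CPM in A549, against 0.385 ± 0.235 CPM in H23. MUC4, known in rat and human cells as a partner of the receptor ERBB2, had 1, 2 and 3 reads in A549 and 1, 0 and 0 in H23. With no filter on low counts, neither passed edgeR's test, at an adjusted p of 0.252 for MUC20 and 0.0638 for MUC4. A difference of MUC4 was not detectable at this depth.

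Of the gel-forming mucins, MUC5AC had 64, 56 and 56 reads in A549 and 0, 0 and 0 in H23. It was at 2.44 ± 0.213 CPM in A549, and a count of 0 over the 3 H23 libraries allows up to 0.0272 CPM there. A549 was therefore at least 89.5-fold higher (edgeR adjusted p = 4.09e-05), a bound that falls to 58.8 without H23 replicate 1 and 55.0 without H23 replicate 3, as less depth then stands behind the 0.

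MUC5B, which lies next to MUC5AC on chromosome 11, had 17, 21 and 18 reads in A549 and 0, 2 and 1 in H23. It was at 0.774 ± 0.0661 CPM in A549, against 0.0301 ± 0.0339 CPM in H23, again without overlap. The ratio of A549 to H23 was 28.5, with a 95% counting interval of 9.26 to 142.2 (edgeR adjusted p = 0.000227). It was 62.2 without H23 replicate 2 and 18.7 without H23 replicate 1. On log2(TPM + 1), where this long gene is close to 0 in both lines, MUC5B did not pass (log2 difference 0.061, limma adjusted p = 0.158, where its other settings gave 4.96e-07 at the lowest).

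MUC6, known from gastric glands, had 2, 0 and 2 reads in A549 and 7, 1 and 5 in H23, and with no filter on low counts its edgeR adjusted p was 0.381. MUC2, the main mucin of intestinal goblet cells, had 1 read in A549 and 0 in H23, below the limit that a count of 0 allows in these libraries. Neither difference was detectable at this depth.

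The floor of 3 counts over a line was 0.0415 CPM for A549 and 0.0272 CPM for H23, and floors and intervals cover counting error only. MUC3A, MUC12 and MUC17 are related in sequence, MUC20 has near copies, and repeats within each mucin make the placing of reads uncertain. Replicates are independent cultures per the labels, and 3 libraries against 3 cannot give a two-sided exact permutation p below 0.1.

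Levels are compared between genes per length, in TPM. In A549, MUC13 led at 0.777 ± 0.284 TPM, above MUC5AC at 0.447 ± 0.0416 TPM and MUC1 at 0.340 ± 0.0954 TPM, and the last pair overlapped. MUC20, at 0.127 ± 0.0473 TPM, lay below MUC1 without overlap and above MUC5B, at 0.0467 ± 0.00577 TPM. MUC3A, MUC4, MUC6, MUC2 and MUC16 were at 0.02 TPM or less in A549, each overlapping its neighbour in that order. Even MUC13 was a low transcript, above 55.1% of all 27968 genes, a share that includes genes at 0.

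In H23, MUC1 led at 23.1 ± 2.38 TPM, above 83.0% of all genes, and MUC3A followed at 4.06 ± 0.212 TPM, without overlap. MUC20, at 0.297 ± 0.178 TPM, and MUC16, at 0.153 ± 0.0404 TPM, overlapped each other and lay below MUC3A. MUC16 stands higher by CPM than by TPM because its mRNA is 43816 bases long in the files, against 1838 and 1811 for the leading MUC1 transcripts in H23. MUC6 was at 0.02 ± 0.01 TPM, and MUC4, MUC5B, MUC13, MUC2 and MUC5AC were at 0.00333 TPM or less.

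The summed TPM of the 10 genes was 1.72, 1.39 and 2.23 in A549 and 24.8, 29.1 and 28.9 in H23. With genes under 350 bases left out of the TPM total, the sums were 2.87, 2.35 and 3.58 in A549 and 25.1, 29.2 and 29.1 in H23, again far apart. MUC1 made up 16.6% to 23.3% of the sum in A549 and 81.8% to 85% in H23. MUC13 made up 38.4% to 49.3% in A549 and at most 0.0346% in H23. The 4 gel-forming genes together made up 30.8%, 32.4% and 23.3% of the sum in the A549 libraries and 0.121%, 0.0688% and 0.0692% in the H23 libraries. These shares are free of the short-gene TPM, since they are taken within the 10 genes.

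**Figure D2:**
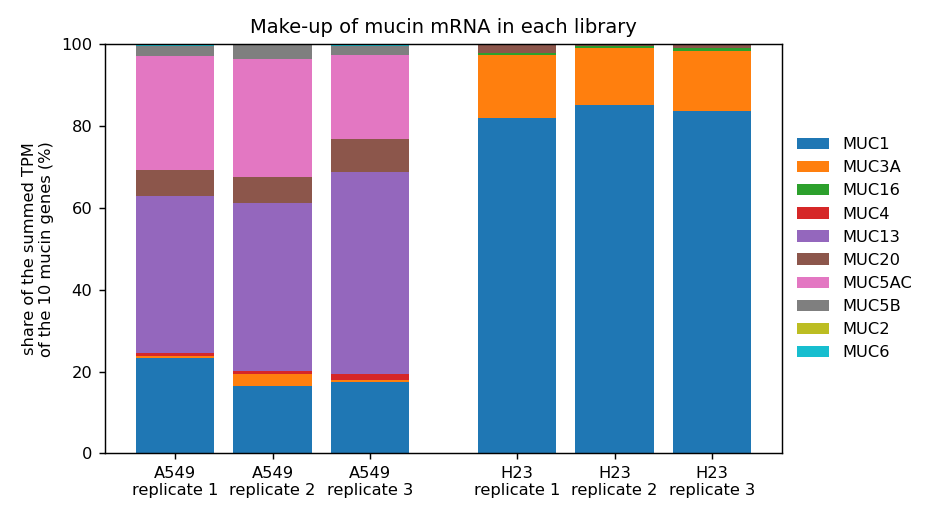
Share, in percent, of the summed TPM of the 10 mucin genes taken by each gene in each A549 library (left) and each H23 library (right), as stacked bars that reach 100. MUC13, MUC5AC and MUC1 make up most of each A549 bar, and MUC1 takes 81.8% to 85% of each H23 bar.

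MUC1 was the only mucin that could be tested for transcript usage. MUC2, MUC3A, MUC5AC, MUC5B, MUC6, MUC13 and MUC16 have 1 annotated transcript each, and MUC4 and MUC20 had too few reads in their transcripts. The files list 20 MUC1 transcripts, 11 of them with a count, and in H23 a pair led, NM_001204286 and NM_001204285. NM_001204286 took 37.1%, 56.1% and 50.5% of MUC1 transcripts in the H23 libraries, and NM_001204285 took 21.5%, 33.5% and 46.2%. The pair differs by 27 bases near the start of the coding sequence, shown in capitals with the flanking bases from GENCODE transcripts (GRCh38).
NM_001204286: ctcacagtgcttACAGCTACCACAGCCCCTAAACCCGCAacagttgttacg
NM_001204285: ctcacagtgcttacagttgttacg
Over all MUC1 transcripts, those with these 27 bases took 37.1%, 58.6% and 52.3% in H23, so both forms were present in each H23 library. In A549 the share was 0%, 100% and 0% in the 3 libraries, resting on 13, 6 and 8 reads, too few to place. NM_002456, without the repeats in its GENCODE sequence, took 38.2% in H23 replicate 1, the library that stood apart. It took 0% in H23 replicates 2 and 3. The 27 bases and the repeats were looked for in GENCODE sequences, and some of these are shorter than the transcript counted. For NM_002456 the lengths are 859 and 1205 bases.

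The repeats are the stretch that carries most of the O-glycans of MUC1, and 1 unit of 60 bases is shown for that reason.
MUC1 repeat unit: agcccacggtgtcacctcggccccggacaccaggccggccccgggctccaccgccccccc
The leading pair each held 3 copies of the unit with up to 6 mismatches, while the longest MUC1 transcript in GENCODE held 40, in 4170 bases. That longest form was not among the transcripts counted in the files. Transcripts with the repeats in their GENCODE sequence took 58.6%, 89.6% and 96.7% of MUC1 in H23. How many copies each line carries, and how reads from further copies were placed, was not measured and limits the MUC1 level.

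Transcript usage of MUC1 did not pass between the lines. It was tested with edgeR's diffSpliceDGE on 2 transcripts that kept enough reads (unadjusted p = 0.163, adjusted p = 0.315, from 0.0807 to 1 under its other settings). Thus 0 of 1 tested mucin was called and 0 of 1 had an unadjusted p under 0.05, where 25.8% of 7539 genes were called. Without A549 replicate 2 the unadjusted p was 0.0194. Equal usage is not shown by this, with 27 reads of MUC1 in A549 in all.

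**Figure D3:**
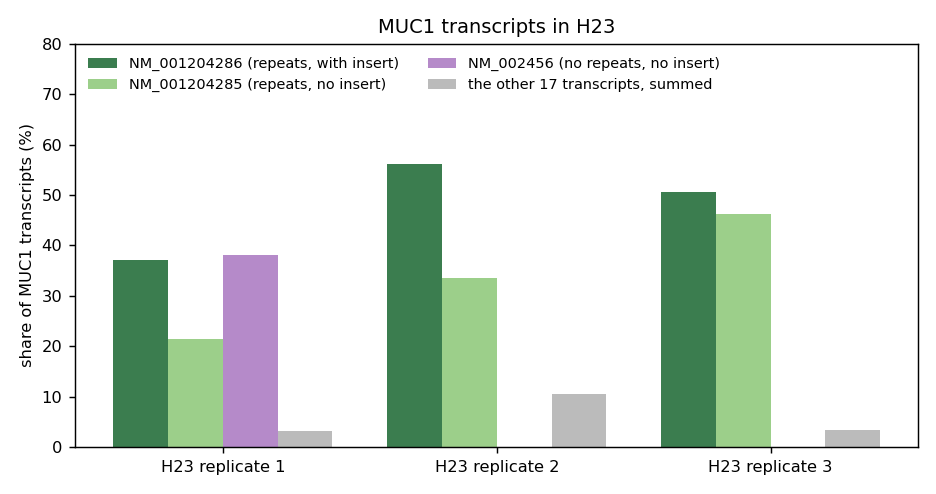
Share, in percent, of MUC1 transcripts taken by the 3 leading transcripts and by the other 17 together in each H23 library, as bars for single libraries. NM_001204286 and NM_001204285 are present in each library, and NM_002456 is present in H23 replicate 1 alone at 38.2%.

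The genes beside the mucins went both ways, by gene order in RefSeq (GRCh38.p14). Both neighbours of MUC1 on chromosome 1 were, like MUC1, higher in H23. TRIM46, a microtubule-binding protein of neurons, was at 2.01 ± 0.291 CPM in A549, against 20.3 ± 2.63 CPM in H23 (log2 -3.33 ± 0.17, edgeR adjusted p = 4.09e-06). THBS3, a thrombospondin of the matrix, had a log2 fold of -2.90 ± 0.21 (edgeR adjusted p = 2.1e-05). Beside MUC3A on chromosome 7, the acetylcholinesterase gene ACHE had its higher level in H23 (log2 -3.14 ± 0.23, edgeR adjusted p = 1.87e-05).

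On the other side of MUC3A, the related mucin MUC12 had 11, 21 and 28 reads in A549 and 28, 7 and 14 in H23, with a log2 fold of 0.91 ± 0.52 that did not pass (edgeR adjusted p = 0.146). It passed without H23 replicate 1, at 1.51 (edgeR adjusted p = 0.00203). Of the neighbours of MUC13 on chromosome 3, the integrin gene ITGB5 was higher in A549 (log2 2.6 ± 0.15, edgeR adjusted p = 7.08e-06) and HEG1 did not pass (log2 -0.13 ± 0.13, edgeR adjusted p = 0.383). MUC6, MUC2, MUC5AC and MUC5B lie in a row on chromosome 11, and the genes at its ends did not pass, AP2A2 with a log2 fold of -0.29 ± 0.17 and TOLLIP with 0.34 ± 0.16. Within that row MUC5AC and MUC5B were read in A549, and MUC2 and MUC6 had at most 7 reads in any library. MUC20 and MUC4 lie together on chromosome 3 between APOD, at 0 counts in all libraries, and TNK2, which was higher in H23 (log2 -1.17 ± 0.13). MBD3L1 and OR1M1, beside MUC16 on chromosome 19, were at 0 counts in all libraries.

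Of the other genes listed as mucin-named, most had few or no reads, but CD164 and MCAM were well read in both lines. Of 12 such genes in the files, 7 were at 0 counts in all 6 libraries and 4 were tested, with 2 higher in H23 and 2 that did not pass. That last pair, MUC12 and CD164, passed as higher in A549 without H23 replicate 1. Calls over all tested genes were 37.6% toward A549 and 39.6% toward H23. CD164, picked with its values in view, was at 133 ± 0.629 CPM in A549, against 94.6 ± 27.6 CPM in H23. It had a log2 fold of 0.49 ± 0.19 (edgeR adjusted p = 0.0503), passed under DESeq2, and turned to higher in H23 once a trend with length and GC content was removed. OVGP1, the oviduct glycoprotein, was at 0.660 ± 0.196 CPM in A549, against 2.41 ± 1.16 CPM in H23 (log2 -1.86 ± 0.41, edgeR adjusted p = 0.005). MCAM, an adhesion molecule, was at 22.7 ± 0.568 CPM in A549, against 42.9 ± 6.17 CPM in H23 (log2 -0.92 ± 0.12).

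Of 20 genes of mucus assembly and co-secreted proteins, 4 had enough reads to be tested, 3 of them higher in A549 and 1 in H23. AGR2, SLPI and WFDC2 entered the test through the line in which each was high. The count is therefore not read as a property of this list. Across all tested genes, calls toward A549 took 37.6% and calls toward H23 39.6%. TFF1 and ZG16B, with 23 and 21 reads in A549 and 0 in H23, had too few reads to enter the test. AGR2, the endoplasmic reticulum disulfide isomerase needed for gel-forming mucin folding in mice, was at 116 ± 9.80 CPM in A549, against 0.0853 ± 0.0558 CPM in H23 (log2 10.40 ± 0.28, edgeR adjusted p = 4.24e-07). SLPI, a protease inhibitor of mucosal fluid, was low in both lines, at 0.692 ± 0.265 CPM in A549, against 0.119 ± 0.0998 CPM in H23 (log2 2.6 ± 0.56), and its log2 fold was 3.39 without H23 replicate 2. WFDC2, another secreted inhibitor family member, had 0 reads in A549 and 5.85 ± 0.875 CPM in H23, which puts H23 at least 139.6-fold above A549 (edgeR adjusted p = 3.3e-05), or at least 91.3-fold without A549 replicate 2. The airway secretory genes SCGB1A1 and SCGB3A1, named after their values had been seen, were at 0 counts in all 6 libraries.

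Of 20 tested transcription factors of mucous and gut-type epithelium, 11 were higher in A549 and 6 in H23, with 3 that did not pass and a median log2 fold of 1.97 against -0.03 over all tested genes. Among all tested genes, calls toward A549 made up 37.6% and calls toward H23 39.6%. Of the factors, ELF3 and HNF4A entered the test through A549, and CREB3L1 and GFI1 through H23. The counts and the median are therefore not read as a property of this list. ELF3, an epithelial ETS factor, was at 183 ± 6.87 CPM in A549, against 0.0824 ± 0.0258 CPM in H23 (log2 11.06 ± 0.17, edgeR adjusted p = 9.02e-08). HNF4A, a nuclear receptor of gut and liver epithelium, was at 54.4 ± 1.75 CPM in A549, against 0.0435 ± 0.0237 CPM in H23 (log2 10.11 ± 0.20).

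The intestinal factor CDX2 and the foregut factor GATA4 went the other way. CDX2 was at 0.417 ± 0.0872 CPM in A549, against 5.90 ± 0.236 CPM in H23 (log2 -3.81 ± 0.19, edgeR adjusted p = 3.71e-06). GATA4 was at 1.89 ± 0.218 CPM in A549, against 13.6 ± 1.70 CPM in H23 (log2 -2.85 ± 0.16). SOX9, a progenitor factor, had a log2 fold of -0.76 ± 0.15 that no longer passed once a trend with length and GC content was removed. The goblet cell factors SPDEF and FOXA2, named after their values had been seen, stood higher in A549 by log2 folds of 5.61 ± 0.34 and 6.03 ± 0.14. Of the secretory cell factors of the list, CREB3L1 and GFI1 went the other way, with log2 folds of -3.34 ± 0.55 and -2.98 ± 0.24 and higher levels in H23, FOXA3 did not pass (0.17 ± 0.21), and ATOH1 was at 0 counts in all 6 libraries. Without A549 replicate 2, CREB3L1 stood at -2.75.

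Enzymes of mucin-type O-glycosylation add and extend the sugar chains that mucins carry. Of 24 tested, 15 were higher in A549 and 7 in H23, with 2 that did not pass and a median log2 fold of 1.12, and on log2(TPM + 1) the counts were 11 and 9. Among them GCNT3, GALNT5 and GCNT4 entered the test through A549, and GALNT3 through H23. The counts and the median are therefore not read as a property of this list. Over the whole table, calls toward A549 made up 37.6% of tested genes and calls toward H23 39.6%, and on log2(TPM + 1) 31.7% of all calls were higher in A549, against 48.7% on the count scale. GALNT1, a GalNAc transferase that starts these chains, was at 197 ± 5.98 CPM in A549, against 20.0 ± 4.33 CPM in H23 (log2 3.30 ± 0.16, edgeR adjusted p = 3.92e-06). GALNT5, of the same family, was at 20.2 ± 1.3 CPM in A549 with 2 reads in H23, a ratio of 1113 with a 95% counting interval of 307.7 to 9203. GCNT3, the branching enzyme known from mucus-secreting tissues, was at 132 ± 4.63 CPM in A549 with 1 read in H23, a ratio of 14600 with a 95% counting interval of 2621 to 576900.

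The H23 reads of GALNT5 and GCNT3 came from H23 replicate 1, and without it A549 was at least 487.5-fold and 3197-fold higher. Without H23 replicate 3 the ratios were 684.4 and 8977. Higher in H23 were GALNT6 (log2 -1.48 ± 0.22), GALNT12 (log2 -2.18 ± 0.12) and GCNT1 (log2 -1.52 ± 0.19), 2 chain-starting enzymes and a branching enzyme. GALNT12 was at 4.59 ± 0.382 CPM in A549, against 20.9 ± 1.66 CPM in H23 (edgeR adjusted p = 5.34e-06).

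**Figure D4:**
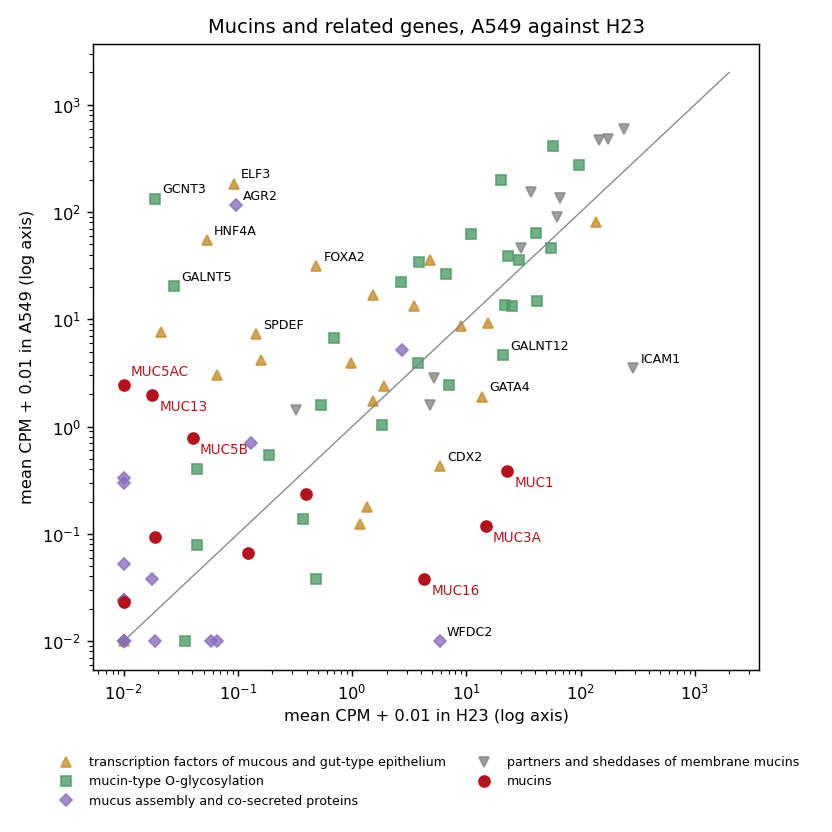
Mean CPM plus 0.01 over 3 libraries in A549 (vertical, log axis) against H23 (horizontal, log axis) for the mucins and for the genes of 4 lists, with the line of equal level; each point is a gene. MUC5AC, MUC13 and MUC5B lie above the line with GCNT3, ELF3, AGR2 and HNF4A, and MUC1, MUC3A and MUC16 lie below it with WFDC2, ICAM1 and CDX2.

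All 11 partners and sheddases of membrane mucins were tested, with 8 higher in A549, 3 higher in H23 and a median log2 fold of 1.03. The shares over all tested genes were 37.6% toward A549, 39.6% toward H23 and 77.2% in either direction. The number called is therefore not read as a property of this list. In A549 the mRNAs of the receptor kinases EGFR and MET stood higher, by log2 folds of 2.06 ± 0.17 and 1.67 ± 0.08 (edgeR adjusted p = 3.79e-05 and 3.2e-06), as was EZR, which links membrane proteins to actin (log2 1.45 ± 0.12). ICAM1, an adhesion molecule that MUC1 binds, was at 3.49 ± 0.560 CPM in A549, against 290.0 ± 6.59 CPM in H23 (log2 -6.38 ± 0.14, edgeR adjusted p = 2.13e-07). MMP14, a protease that can shed MUC1, and ERBB3 also had their higher level in H23 (log2 -1.60 ± 0.16 and -0.88 ± 0.13).

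Of 13 genes of mucin granule release, all tested, 3 were higher in A549 and 7 in H23, with 3 that did not pass and a median log2 fold of -0.59. Without H23 replicate 1 the counts were 5 and 8, and on log2(TPM + 1) 2 and 8. Over all tested genes, 37.6% were called higher in A549, 39.6% higher in H23 and 77.2% in either direction. The number called is therefore not read as a property of this list. MYO5C, a myosin of secretory granules, was at 68.2 ± 0.443 CPM in A549, against 1.29 ± 0.222 CPM in H23 (log2 5.71 ± 0.14, edgeR adjusted p = 2.99e-07), and the priming factor UNC13D had a log2 fold of 3.88 ± 0.15. SNAP23, of the fusion complex, had a log2 fold of 0.28 ± 0.08 and turned to -0.26 on log2(TPM + 1), and also turned once a trend with length and GC content was removed. STXBP2 and VAMP8, also of the fusion step, had their higher level in H23 (log2 -2.0 ± 0.15 and -1.57 ± 0.11).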

How the data were processed

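Per the labels, total RNA of 6 cultures was made into stranded libraries with ribosomal RNA removal. The submitters' processing notes name STAR 2.6.0c, RSEM 1.3.0 and hg19; the annotation release and strand setting are not given in the sources used here, so reads of overlapping antisense genes cannot be told apart. Each library came with an RSEM gene table and transcript table. Per the file headers, the deposited values are RSEM's expected counts (estimated reads, unscaled), TPM (scaled for length and depth) and, for transcripts, the percent of the gene that each makes up. Deposited FPKM values were not used.

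After rounding to whole numbers, expected counts were tested with edgeR 4.0.16 (TMM, filterByExpr, robust quasi-likelihood F test, Benjamini-Hochberg) in R 4.3.3, with limma 3.58.1 and DESeq2 1.42.0 as alternatives. Standard errors divide the size of the log2 fold by the root of F and are approximate. A line at 0 counts was set to 3 counts over the group. Motifs were searched with Python 3.11.15. Tests were tried on simulated data.

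The mucins, gene lists and tests were chosen with earlier results of these data known. Named are all 10 mucins, up to 3 genes per list and direction with the largest fold among those that passed at a mean TPM of at least 1, the nearest protein-coding neighbours, and transcripts with at least 10% of a mucin in every library of a line. Other names were chosen after their values were seen. No label says that replicate numbers pair the libraries, and the main test did not pair them. List counts without H23 replicate 1, and ratios with a library left out, were added after the data were seen. Some genes that the rule names are not reported here.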

Additional observations from a re-analysis of the deposited data

How the results depend on the processing

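The mucin calls, 3 higher in A549 and 3 higher in H23, stood under the alternatives run (other scaling, DESeq2, filters, each library left out, removal of a trend with length and GC content), and no direction turned. The exception was MUC5B, which did not pass on log2(TPM + 1), at 0.061, leaving 2 higher in A549. Over all genes, 11910 calls ran from 10813 to 13666 with a library left out, the highest without H23 replicate 1. The share of calls higher in A549 was 48.7%, against 31.7% on log2(TPM + 1), where the median log2 difference was -0.41 instead of -0.03, and 44.2% with upper quartile factors, with a median of -0.16. Of the other named genes that passed, SNAP23 alone turned, on both TPM scales and with that trend removed. Beside the list shifts given above, mucus assembly had 5 genes higher in A549 without a filter and 2 on log2(TPM + 1), against 3, partners and sheddases had 6 on log2(TPM + 1), against 8, and transcription factors had 13 higher in A549 and 5 in H23 with the trend removed, against 11 and 6.

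Correlations of deviations were 0.0823, -0.101 and 0.149 for equal replicate numbers, and not every library correlated best with its own number. With 3 libraries per line and H23 replicate 1 apart from the others, these values cannot exclude a pairing. With replicate as a block, 11691 genes were called and the mucin counts were again 3 and 3. The usage test called 1249 genes with the block and 955 by the Simes test, against 1944, with 0 mucins in each. Depth limits MUC2, MUC4, MUC6 and MUC20, which had at most 24 reads in a library, and the cause of the changes above was not tested.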
